A study of Mus musculus with 9 samples.

Results

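Fc gamma receptors bind the constant part of IgG antibodies and carry the signal of an antibody-coated target into macrophages, neutrophils, NK cells and mast cells. The set described here consists of 9 genes chosen by name. They are the receptor genes Fcgr1, Fcgr2b, Fcgr3 and Fcgr4, and Fcer1g, the gene of the signaling chain common to the activating receptors. The other members are the cytoplasmic tyrosine kinase genes Syk, Fgr, Lyn and Btk. All 9 of 9 were found among the 18755 genes of the counts table, and all 9 were among the 13966 genes tested. Expression of 8 of the 9 genes rose in tumors treated with the focal adhesion kinase inhibitor BI 853520, by between 1.52-fold for Lyn and 2.45-fold for Fcgr4, and the expression of Fgr did not pass the test. Over all genes tested, 14.6% were higher and 14.1% lower at the same threshold, an adjusted p of at most 0.05.

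The samples were 4T1 primary tumors, grown from a metastatic mammary carcinoma cell line of BALB/c origin in immunocompetent mice, so that each library mixes the RNA of carcinoma cells with that of the cells of the host. Female BALB/c mice of 6 to 10 weeks received 1000000 4T1 cells into a mammary fat pad. From day 15 after injection, 6 mice were dosed for 5 days with 50 mg/kg BI 853520 (BI) and 3 mice with the 0.5% Natrosol vehicle alone. The comparison asks what inhibition of the kinase did to gene expression in the whole tumor. Each tumor gave 1 library of messenger RNA, and the replicate numbers (vehicle 1 to 3, BI 1 to 6) only name the tumors. No batch is given in the labels. In bulk tumors, more cells of a type and more RNA per cell cannot be told apart.

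In the textbook pathway, an activating receptor pairs with the Fcer1g chain, whose tyrosine motif (ITAM) is phosphorylated by SRC family kinases such as Lyn and Fgr. The phosphorylated motif recruits Syk, and Syk together with the TEC family kinase Btk activates phospholipase C gamma. Fcgr2b is the inhibitory receptor of the family: it carries an inhibitory motif (ITIM) of its own and recruits the phosphatase SHIP-1, the product of Inpp5d.

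The libraries held from 16931607 to 33850245 counts. The lowest count of any of the 9 genes in any tumor was 310, so none was near the limit of detection. Expression is given as TMM-normalised counts scaled to the library size (CPM), and p values come from edgeR's quasi-likelihood F test with Benjamini-Hochberg adjustment over all genes tested. As a check of the labelled tissue, the keratin genes Krt8 and Krt18 were the well expressed ones among 6 carcinoma epithelium markers. Krt8 was at 478 ± 58.3 CPM in vehicle tumors (SD, n = 3) and 394 ± 38.4 CPM in BI tumors (SD, n = 6), and Krt18 at 579 ± 57.7 and 410 ± 58.3 CPM. Both were lower in BI tumors (edgeR adjusted p = 0.0444 and 0.00636). Epcam was at 2.13 ± 0.603 and 4.42 ± 2.96 CPM and did not pass (edgeR adjusted p = 0.0987). The keratin gene Krt19, at 9.71 ± 1.46 and 10.8 ± 6.39 CPM, did not pass either (edgeR adjusted p = 0.783). Cldn4, at 3.32 ± 0.144 and 2.10 ± 0.702 CPM, and Cldn7, at 0.972 ± 0.320 and 1.06 ± 0.712 CPM, also did not pass (edgeR adjusted p = 0.0939 and 0.874). The median log2 fold change over all genes tested was -0.0037, against 0.79 over the 9 genes.

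At an adjusted p of at most 0.05 in the edgeR test, 8 of the 9 genes were higher in BI tumors and 0 were lower. Of all genes tested, 14.6% were higher and 14.1% lower at the same threshold. The cutoffs of the study (an unadjusted p of at most 0.05 with a log2 fold change beyond 0.58 either way) called the same 8 genes higher, where they called 9.59% of all genes higher and 3.57% lower. Every BI tumor lay above every vehicle tumor for 8 of the 9 genes. This separation was met by 14.1% of all genes, and the opposite one, with every BI tumor below, by 14.0%.

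**Figure D1:**
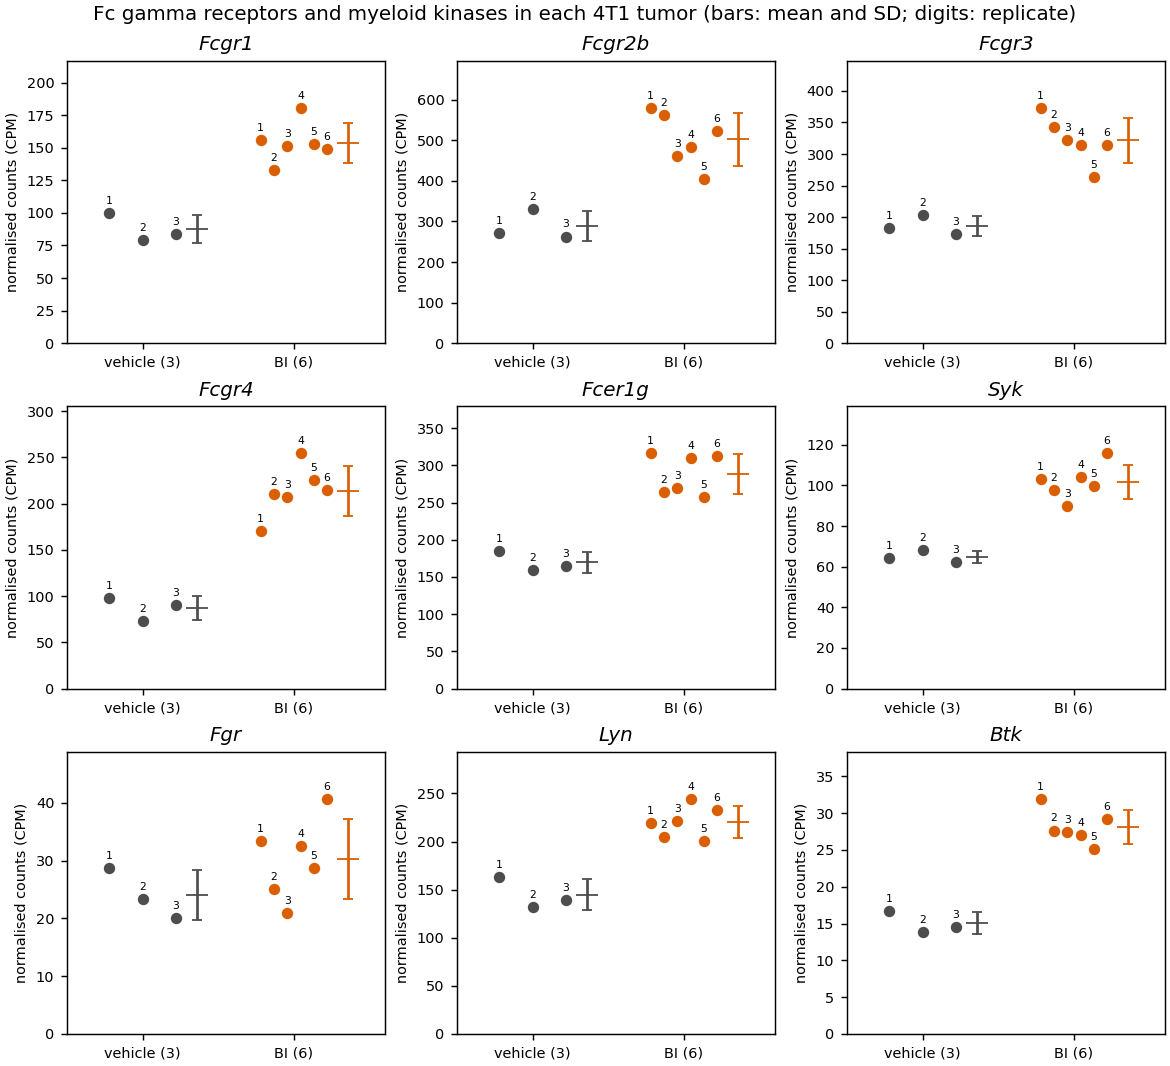
TMM-normalised CPM (y axis, from 0) of the 9 genes in each of the 3 vehicle and 6 BI tumors. Points are tumors numbered by replicate and bars give the mean and SD. The groups are apart in all panels but that of Fgr.

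The 4 receptors and the chain were taken first. Fcgr4 encodes an activating receptor for IgG2a and IgG2b found on monocytes, macrophages and neutrophils, and it lies on mouse chromosome 1 (chr1:172949051-172959892 of mm9, plus strand). Its expression was 98.2, 73.4 and 90.3 CPM in vehicle tumors 1 to 3, and 170, 211, 207, 254, 225 and 214 CPM in BI tumors 1 to 6. The groups did not overlap, and the lowest BI tumor, number 1, was still well above the highest vehicle tumor. The log2 fold change was 1.29 (SE 0.12, adjusted p = 3.84e-05 in edgeR), a 2.45-fold rise that ranked 257 from the top among the 13966 genes.

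Fcgr1 encodes the high-affinity IgG receptor and lies on chromosome 3 (chr3:96086832-96098179, minus strand). It was at 99.7, 79.0 and 83.7 CPM in the vehicle tumors and ranged in BI tumors from 133 through a median of 152 to 181 CPM. The groups did not overlap, with BI tumor 4 highest, as for Fcgr4. The log2 fold change was 0.82 (SE 0.10, edgeR adjusted p = 0.000133).

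Fcgr3, the low-affinity activating receptor for immune complexes, and the inhibitory Fcgr2b lie on either side of Fcgr4 on chromosome 1 (Fcgr3 at chr1:172981300-172995066 and Fcgr2b at chr1:172890689-172906678, both on the minus strand). Fcgr3 was at 182, 203 and 173 CPM in the vehicle tumors, and at 373, 342, 323, 314, 263 and 314 CPM in BI tumors 1 to 6. Fcgr2b was at 271, 332 and 263 CPM in the vehicle tumors, and at 579, 563, 462, 484, 404 and 523 CPM in BI tumors 1 to 6. Both genes were highest in vehicle tumor 2 and in BI tumor 1 and lowest in vehicle tumor 3 and BI tumor 5 of their groups, and neither overlapped between groups. The log2 fold changes were close, at 0.79 for Fcgr3 (SE 0.10, edgeR adjusted p = 0.000186) and 0.80 for Fcgr2b (SE 0.12, edgeR adjusted p = 0.00052). The coding sequences of this pair were 84.5% identical, whereas the other pairs of receptors were between 59.5% and 64.4% identical. Of the 50-base windows of the transcripts, the length of 1 mate, 166 were shared by both genes (10.7% of those of Fcgr2b and 12.8% of those of Fcgr3), so reads from these windows can be missing or misplaced and the counts of the pair are uncertain to that extent. None of the windows of the other 7 genes occurred in another gene.

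Fcer1g, the common chain with which all 3 activating receptors pair, also lies on chromosome 1 (chr1:173159703-173164496, minus strand). It was at 185, 159 and 165 CPM in the vehicle tumors and ranged from 258 through a median of 290 to 316 CPM in BI tumors, without overlap. Its log2 fold change of 0.77 (SE 0.09, edgeR adjusted p = 0.000104) was the smallest of the 5 receptor and chain genes, and lay within 1 SE of those of Fcgr1, Fcgr2b and Fcgr3.

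**Figure D2:**
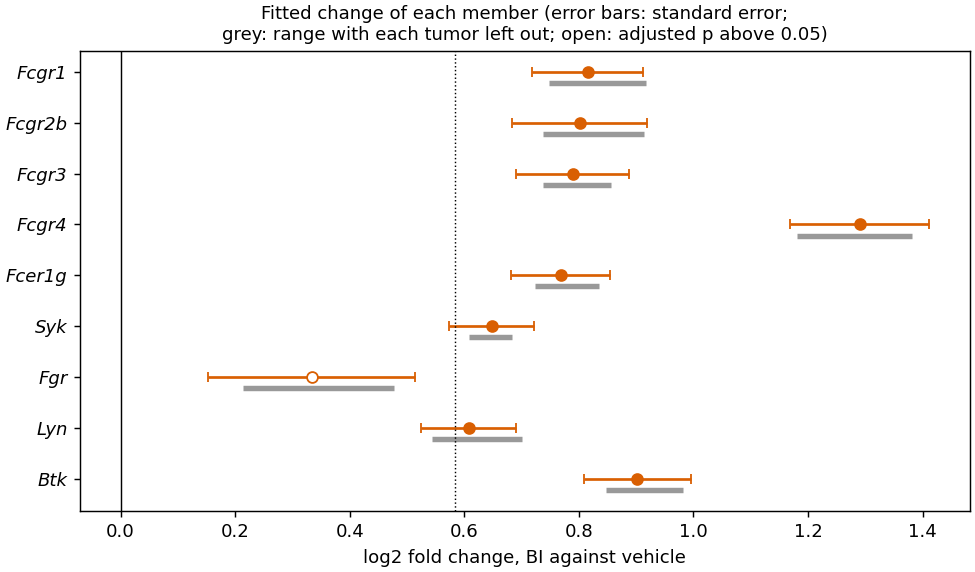
Log2 fold change of each gene, BI against vehicle (x axis), with its standard error. Grey bars span the estimates obtained without single tumors, the dotted line marks the 0.58 cutoff of the study, and the open point (Fgr) has an adjusted p above 0.05. Fcgr4 lies farthest to the right at 1.29.

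The promoters of the 4 receptors are shown because all 4 genes rose in BI tumors, with the largest estimate for Fcgr4. They come from RefSeq on GRCm38.p6, span 250 bases before to 50 bases after the start, and are written along the strand of the gene. Capitals mark each match of 4 patterns sought on both strands: the core GAGGAA bound by the myeloid factor PU.1, the interferon gamma activated site (TTC and GAA with 3 bases between), the interferon-stimulated response element (GAAA and GAAA with 2 bases between), and the C/EBP site (TTGC and CAA with 2 bases between). No matches overlapped in these promoters.
Fcgr1 (chr3:96293920-96294219, minus strand): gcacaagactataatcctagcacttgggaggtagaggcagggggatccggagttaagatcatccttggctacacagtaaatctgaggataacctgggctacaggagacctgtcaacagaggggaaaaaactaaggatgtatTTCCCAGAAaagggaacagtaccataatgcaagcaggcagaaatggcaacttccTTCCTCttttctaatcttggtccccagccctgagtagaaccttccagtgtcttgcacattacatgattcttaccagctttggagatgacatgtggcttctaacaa
Fcgr2b (chr1:170976022-170976321, minus strand): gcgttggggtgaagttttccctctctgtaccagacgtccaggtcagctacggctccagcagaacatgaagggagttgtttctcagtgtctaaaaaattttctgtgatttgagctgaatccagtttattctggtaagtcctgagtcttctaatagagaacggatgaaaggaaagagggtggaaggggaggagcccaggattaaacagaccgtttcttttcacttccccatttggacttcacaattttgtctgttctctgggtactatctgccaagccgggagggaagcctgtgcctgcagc
Fcgr3 (chr1:171059354-171059653, minus strand): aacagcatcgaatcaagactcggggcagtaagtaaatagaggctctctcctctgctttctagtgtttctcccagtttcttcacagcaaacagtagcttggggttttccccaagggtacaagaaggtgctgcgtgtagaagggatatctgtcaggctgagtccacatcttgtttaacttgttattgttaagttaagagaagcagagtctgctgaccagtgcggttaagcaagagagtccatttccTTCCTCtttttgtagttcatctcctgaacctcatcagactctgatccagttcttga
Fcgr4 (chr1:171018676-171018975, plus strand): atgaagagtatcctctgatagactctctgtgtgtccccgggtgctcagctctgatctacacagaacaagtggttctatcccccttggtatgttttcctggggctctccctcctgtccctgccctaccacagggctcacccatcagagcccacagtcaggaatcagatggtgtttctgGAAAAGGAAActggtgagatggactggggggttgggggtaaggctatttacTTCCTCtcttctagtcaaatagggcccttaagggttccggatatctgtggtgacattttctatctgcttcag

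The PU.1 core occurred in all 3 activating receptors, with its first base at -55 in Fcgr1, -6 in Fcgr3 and -22 in Fcgr4 relative to the start, and had no match in this window of Fcgr2b. Of the 8 genes of the set with a promoter in the table, 6 held it in at least 1 promoter (Fcgr1, Fcgr3, Fcgr4, Fgr, Btk and Syk, the last at only 1 of its starts). By the first promoter of each gene 5 of the 8 held it, without Syk. Of all 32851 promoters, counted singly and not by gene, 28.3% held it. The interferon gamma activated site was matched in Fcgr1 alone, at -109 (8.30% of all promoters), and the interferon-stimulated response element in Fcgr4 alone, at -73 (3.44%). The C/EBP pattern was in 0 of the 8 (2.08% of all promoters). These are matches of letters and not evidence of binding.

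Of the kinases, Syk, the kinase that docks on the phosphorylated ITAM (chr13:52678542-52744161, plus strand), was at 64.1, 68.2 and 62.3 CPM in the vehicle tumors and at 89.9 to 116 CPM in BI tumors, with a median of 101 CPM. The BI tumors were all higher, and the vehicle tumors differed little among themselves. The log2 fold change was 0.65 (SE 0.07, edgeR adjusted p = 0.000113).

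Btk, which acts with Syk on phospholipase C gamma and is also a B cell kinase (chrX:131076875-131118109, minus strand), was at 16.7, 13.9 and 14.5 CPM in the vehicle tumors and at 25.1 to 31.9 CPM in BI tumors, with a median of 27.6 CPM. It rose by 0.90 on the log2 scale (SE 0.09, edgeR adjusted p = 5.74e-05) without overlap, the largest estimate of the 4 kinases. The B cell gene Ms4a1 was at 0.281 ± 0.267 CPM in vehicle tumors (SD, n = 3) and 0.425 ± 0.153 CPM in BI tumors (SD, n = 6), and the summed B and plasma cell markers were at 1.47 to 3.18 CPM in vehicle tumors and 1.93 to 5.67 CPM in BI tumors.

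Lyn, a SRC family kinase that phosphorylates activating and inhibitory motifs alike (chr4:3605262-3740269, plus strand), was at 163, 132 and 139 CPM in the vehicle tumors and at 201 to 244 CPM in BI tumors, with a median of 220 CPM. The groups did not overlap. The log2 fold change was 0.61 (SE 0.08, edgeR adjusted p = 0.000319), the smallest of the 8 that passed. It stood just over the 0.58 cutoff of the study, and fell under it when vehicle tumor 2, vehicle tumor 3 or BI tumor 4 was left out (0.54 to 0.70 over all tumors left out in turn). Exons of Lyn overlap a noncoding gene, Gm17726, on the other strand, and whether the strand was used in counting is not given in the sources used here.

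Fgr, the SRC family kinase of neutrophils, monocytes and macrophages (chr4:132530010-132557825, plus strand), did not pass the test. It was at 28.7, 23.4 and 20.0 CPM in the vehicle tumors and at 33.5, 25.1, 21.0, 32.6, 28.7 and 40.7 CPM in BI tumors 1 to 6. The groups overlapped: 3 of 6 BI tumors were above every vehicle tumor, and BI tumor 3 was close to the lowest vehicle tumor. The log2 difference was 0.33 (SE 0.18, edgeR adjusted p = 0.189). Its coefficient of variation was the highest of the 9 genes in both groups, at 18.1% in vehicle and 22.9% in BI tumors.

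Levels were compared between genes per kilobase of gene length (CPM per kb). In vehicle tumors the order was Fcer1g (258 ± 21.1 CPM per kb, SD, n = 3), Fcgr2b (186 ± 24.4), Fcgr3 (138 ± 11.5), Fcgr4 (69.9 ± 10.2), Lyn (41.8 ± 4.69), Fcgr1 (33.8 ± 4.19), Syk (12.3 ± 0.567), Fgr (7.20 ± 1.31) and Btk (5.93 ± 0.592). Each gene was above the next in 3 of 3 vehicle tumors. In BI tumors the chain Fcer1g was again highest, at 438 ± 41.2 CPM per kb (SD, n = 6), followed by Fcgr2b (325 ± 42.6), Fcgr3 (238 ± 26.8), Fcgr4 (171 ± 21.8), Lyn (63.7 ± 4.76), Fcgr1 (59.4 ± 5.90), Syk (19.3 ± 1.62), Btk (11.1 ± 0.909) and Fgr (9.05 ± 2.07). Neighbours were in this order in 6 of 6 BI tumors except Lyn over Fcgr1 and Btk over Fgr, each in 5 of 6, so the order of Fgr and Btk was the other way round from that in vehicle tumors.

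The balance of activating and inhibitory receptor was followed as the log2 ratio of each activating receptor to Fcgr2b per length, which does not depend on the scaling between libraries. With 84 divisions of the 9 tumors the exact permutation test cannot give a two-sided p under 0.0238. The ratio of Fcgr4 to Fcgr2b was 0.374 in vehicle tumors and 0.53 in BI tumors (geometric means), a log2 difference of 0.49. In log2 it was -1.16, -1.87 and -1.23 in vehicle tumors 1 to 3, and -1.46, -1.11, -0.85, -0.62, -0.53 and -0.98 in BI tumors 1 to 6, so that 5 of 6 BI tumors were above every vehicle tumor and BI tumor 1 was not. The difference did not pass (two-sided exact permutation test p = 0.119, 0.357 after Benjamini-Hochberg adjustment over 3 ratios). A single ratio could not pass this adjustment even at the smallest possible p, so the adjusted value adds little to the unadjusted one. Without vehicle tumor 2, where Fcgr4 was lowest and Fcgr2b highest, the difference was 0.27.

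The other 2 ratios were nearly level. Fcgr1 to Fcgr2b was 0.181 in vehicle and 0.184 in BI tumors, a log2 difference of 0.018, and Fcgr3 to Fcgr2b was 0.740 and 0.733, a log2 difference of -0.014 (exact permutation p = 0.833 for both, 0.833 adjusted). Leaving out single tumors moved the first between -0.16 and 0.16 and the second between -0.05 and 0.01.

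As a share of the summed mRNA of the 4 receptors per length, Fcgr4 made up 18.4%, 12.9% and 17.97% in vehicle tumors 1 to 3, and 16.1%, 20.1%, 21.8%, 24.9%, 25.9% and 21.4% in BI tumors 1 to 6. BI tumor 1 lay inside the range of the vehicle tumors and the others above it. Fcgr2b had the largest share in every tumor, at 43.5% ± 3.31 in vehicle (SD, n = 3) and 40.9% ± 2.85 in BI tumors (SD, n = 6). Fcgr3 made up 32.1% ± 0.826 and 29.9% ± 1.79, and Fcgr1 7.93% ± 1.15 and 7.53% ± 0.91. The summed activating receptors over Fcgr2b came to 1.12 to 1.44 in vehicle tumors and 1.26 to 1.66 in BI tumors, which overlapped.

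**Figure D3:**
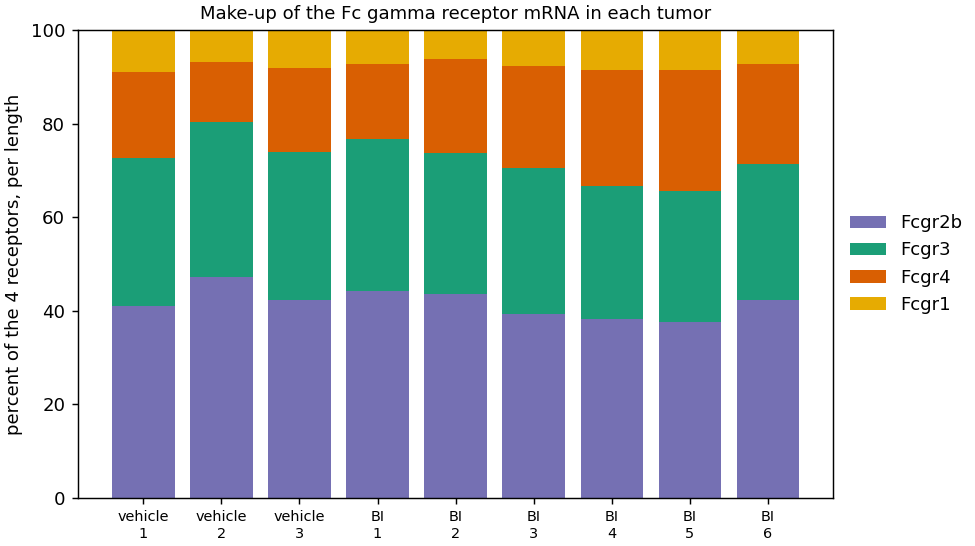
Share of each receptor in the summed CPM per kb of the 4 receptors (y axis, percent), with 1 bar per tumor. The Fcgr4 segment is 12.9% to 18.4% in the vehicle tumors and 16.1% to 25.9% in the BI tumors, and Fcgr2b is the largest segment throughout.

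The 9 genes are expressed by several host cells, and the marker genes of these moved as well. Of 14 macrophage and monocyte markers tested, 12 rose and 1, Cd14, fell (-0.52 on the log2 scale), with a median log2 fold change of 0.87, and their sum was 3218 to 4015 CPM in vehicle tumors and 5511 to 7365 CPM in BI tumors. Of 9 neutrophil markers, 4 fell (S100a8, S100a9, Cxcr2 and Retnlg) and 0 rose, with a summed level of 550 to 770 CPM in vehicle and 236 to 391 CPM in BI tumors. Of 5 NK cell markers 4 rose, from a summed 12.9 to 15.6 CPM to 25.85 to 33.97 CPM. Markers of some other cells moved too: 5 of 7 dendritic cell markers rose (median 1.01), 6 of 7 T cell markers (median 1.11) and 3 of 6 endothelial markers (median 0.40), and none of these fell. Of 6 fibroblast markers only 1 rose and 0 fell (median 0.73), and 0 of them separated the groups. Of 5 platelet and megakaryocyte markers and 3 erythroid markers tested, 0 passed in either direction. Over all genes tested, 14.6% were higher and 14.1% lower at the same threshold. Of 6 carcinoma epithelium markers 2 fell and 0 rose, with a summed level of 943 to 1171 CPM in vehicle and 741 to 944 CPM in BI tumors. The part of these cells in the values of the 9 genes was not tested.

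Mast cells use Fcer1g, Lyn, Syk and Btk downstream of the IgE receptor and also carry Fcgr2b and Fcgr3. Of 8 mast cell markers, 6 rose and 1, Hdc, fell. Their sum was 107, 92.2 and 79.0 CPM in vehicle tumors 1 to 3, and 533, 272, 158, 181, 96.6 and 418 CPM in BI tumors 1 to 6. BI tumor 1 had the highest sum and BI tumor 5 the lowest, the same tumors in which Fcgr2b, Fcgr3, Fcer1g and Btk were highest and lowest among BI tumors. The other genes named above did not follow this order. Lyn was highest in BI tumor 4 and lowest in BI tumor 5, and Syk was highest in BI tumor 6 and lowest in BI tumor 3. The low end was not particular to mast cells. Among BI tumors the summed macrophage and monocyte markers were also lowest in number 5 (5511 CPM), and highest in number 3 (7365 CPM). Between the extremes the order was not always the same. Fcer1g in BI tumor 4, at 310 CPM, was close to the 316 CPM of BI tumor 1, although BI tumor 4 had a mast cell sum of only 181 CPM. Hdc, at 40.7 ± 3.66 CPM in vehicle tumors (SD, n = 3) and 26.01 ± 6.74 CPM in BI tumors (SD, n = 6), was the largest part of the sum in vehicle tumors. Kit, Tpsb2 and Cma1 were above every vehicle tumor in every BI tumor, number 5 included. The part of mast cells in the values of the 9 genes was not tested.

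Since the macrophage markers rose, each gene was also set against Csf1r and Adgre1, receptors of macrophages, within the same tumor, a comparison chosen after the values had been seen. Csf1r rose by 0.91 and Adgre1 by 0.93 on the log2 scale. The changes of the other macrophage and monocyte markers ran from -0.52 for Cd14 through 0.62 for Cd68 to 1.455 for Cx3cr1. Fcgr4 rose by 1.29 and Lyn by 0.61, so the size and sign of a ratio depend on the marker chosen. Ratios to the other markers were not taken, and the differences below hold for Csf1r and Adgre1 only. Relative to Csf1r, Fcgr4 was 0.39 higher in BI tumors on the log2 scale, above every vehicle tumor in 6 of 6 (exact permutation p = 0.0238, the smallest possible). Lyn was lower relative to Csf1r by -0.29, below every vehicle tumor in 6 of 6 (exact permutation p = 0.0238). After Benjamini-Hochberg adjustment over the 18 ratios both came to 0.143, and neither passed.

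The remaining genes gave log2 differences relative to Csf1r of -0.59 for Fgr (5 of 6 BI tumors below every vehicle tumor, exact permutation p = 0.0476, adjusted 0.161), -0.26 for Syk (p = 0.0714, adjusted 0.161 by the same permutation test), and between -0.14 and -0.002 for Fcgr1, Fcgr2b, Fcgr3, Fcer1g and Btk (exact permutation p = 0.238 or above). Relative to Adgre1 the difference was 0.36 for Fcgr4 (4 of 6 BI tumors above, exact permutation p = 0.0714, adjusted 0.161) and -0.32 for Lyn (6 of 6 below, exact permutation p = 0.0238, adjusted 0.143). Of the 18 ratios, 0 passed the adjustment, but with a smallest exact permutation p of 0.0238 at least 9 of them would have had to reach that value for any to pass, so the adjusted values say little.

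**Figure D4:**
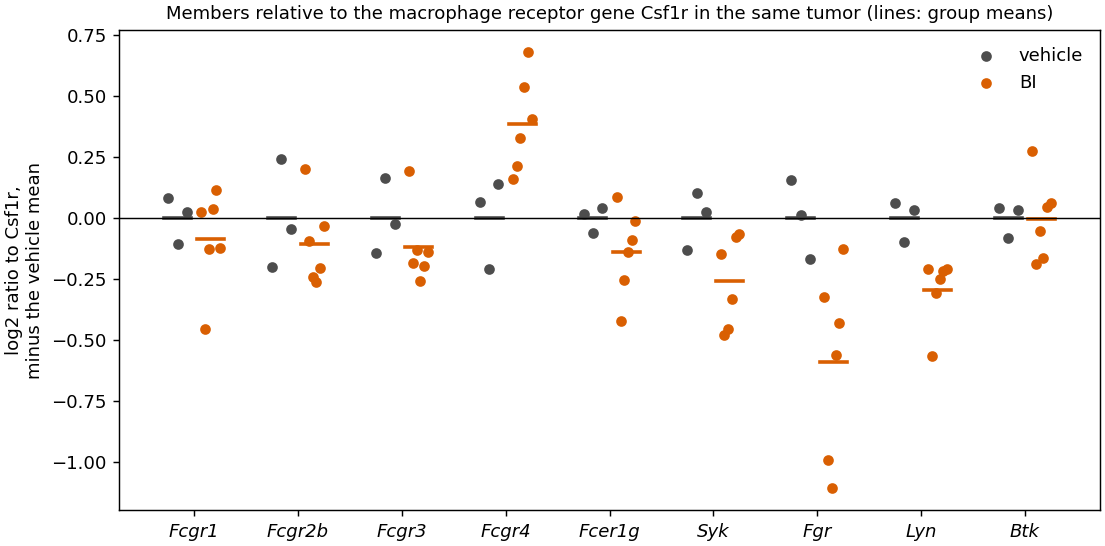
Log2 ratio of each gene to Csf1r in the same tumor, less the mean of the vehicle tumors (y axis). Points are tumors and lines are group means. All 6 BI tumors are above the vehicle tumors for Fcgr4 and below them for Lyn.

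The genes around the 9 in the pathway were described by lists of genes. Among 9 other Fc receptors tested, 3 rose and 0 fell (median log2 fold change 0.58). Fcgrt, the neonatal receptor that recycles IgG and the most abundant of them per length, went from 136 ± 21.3 to 203 ± 34.9 CPM (log2 fold change 0.58, SE 0.14, edgeR adjusted p = 0.00829). Fcer1a, the IgE-binding chain that pairs with Fcer1g on mast cells and basophils, went from 0.622 ± 0.263 to 4.11 ± 3.39 CPM (log2 fold change 2.76, edgeR adjusted p = 0.0211), and its groups overlapped, with 0.571 CPM in BI tumor 5 and 9.54 CPM in BI tumor 1. Fcrl5, a receptor of B lineage cells, was at 1.06 ± 0.540 and 3.19 ± 1.81 CPM (log2 fold change 1.57, edgeR adjusted p = 0.0451, groups overlapping).

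In a list of immunoglobulin and pentraxin genes, Jchain was at 2.09 ± 1.196 CPM in vehicle and 2.84 ± 1.37 CPM in BI tumors (edgeR adjusted p = 0.481). It encodes the joining chain of polymeric immunoglobulins and is no measure of IgG. Of the 2 tested genes of this list, 0 passed. No row of the counts was matched to the IgG heavy chain genes Ighg1, Ighg2b, Ighg2c and Ighg3, so they could not be analysed here.

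Of 19 other ITAM adaptors and partner receptors, 9 rose and 1 fell, with a median of 0.38. Tyrobp, the DAP12 adaptor that like Fcer1g recruits Syk, was the most abundant per length and rose from 137 ± 7.15 to 219 ± 12.2 CPM (log2 fold change 0.67, SE 0.06, edgeR adjusted p = 3.84e-05), in the same range as the chain. Its partner Trem2, a lipid receptor of macrophages, rose by 0.77 and the T cell receptor subunit gene Cd3e by 1.14. Clec4e, an activating lectin that signals through Fcer1g, fell by 0.47 on the log2 scale (34.7 ± 5.04 to 25.0 ± 4.36 CPM, edgeR adjusted p = 0.0247, groups overlapping).

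Of 13 other kinases of the SRC, SYK and TEC families, 8 rose and 2 fell, with a median of 0.51. Among those with the smallest p were Zap70, which rose by 1.21 on the log2 scale, and Fyn, which rose by 0.55, and both serve T cell receptor signaling. Csk, the kinase that restrains SRC family kinases and the most abundant of the list per length, rose by 0.20 (117 ± 5.13 to 135 ± 5.68 CPM, edgeR adjusted p = 0.0175). Src and Frk, SRC family kinases that epithelial cells also express, fell by 0.29 and 0.27 on the log2 scale (edgeR adjusted p = 0.0315 and 0.0265).

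Downstream, 19 of 24 adaptors and effectors rose and 1 fell, with a median of 0.74. Plcg2, the phospholipase C of Syk and Btk signaling in blood cells, rose from 81.9 ± 2.15 to 188 ± 27.0 CPM (log2 fold change 1.201, SE 0.11, edgeR adjusted p = 3.59e-05), whereas its widely expressed relative Plcg1 fell by 0.22 on the log2 scale (edgeR adjusted p = 0.0441, groups overlapping). The leukocyte PI3-kinase subunit genes Pik3cd and Pik3cg rose by 0.78 and 0.88. The adaptor gene Grb2, the most abundant of the list per length, rose by 0.32 (edgeR adjusted p = 0.00347).

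On the inhibitory side, where Fcgr2b acts, 18 of 25 phosphatase and receptor genes rose and 0 fell, with a median of 0.65. Inpp5d, which encodes the phosphatase SHIP-1 recruited by Fcgr2b, rose from 72.1 ± 4.13 to 136 ± 7.24 CPM (log2 fold change 0.92, SE 0.06, edgeR adjusted p = 8.76e-06). Pirb, an inhibitory receptor of myeloid cells, and Sirpa, the receptor for the signal against phagocytosis CD47, rose by 1.04 and 0.70. Lilrb4a, the most abundant per length, was at 119 ± 8.02 and 134 ± 16.8 CPM and did not pass (edgeR adjusted p = 0.201).

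All 5 of 5 genes of the phagocyte oxidase, the enzyme that makes superoxide when Fc receptors are engaged, rose, with a median of 0.70. The catalytic subunit gene Cybb went from 164 ± 8.199 to 304 ± 30.6 CPM (log2 fold change 0.89, SE 0.09, edgeR adjusted p = 4.17e-05), and Ncf1, Ncf4 and Cyba rose by 0.70, 0.76 and 0.56.

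**Figure D5:**
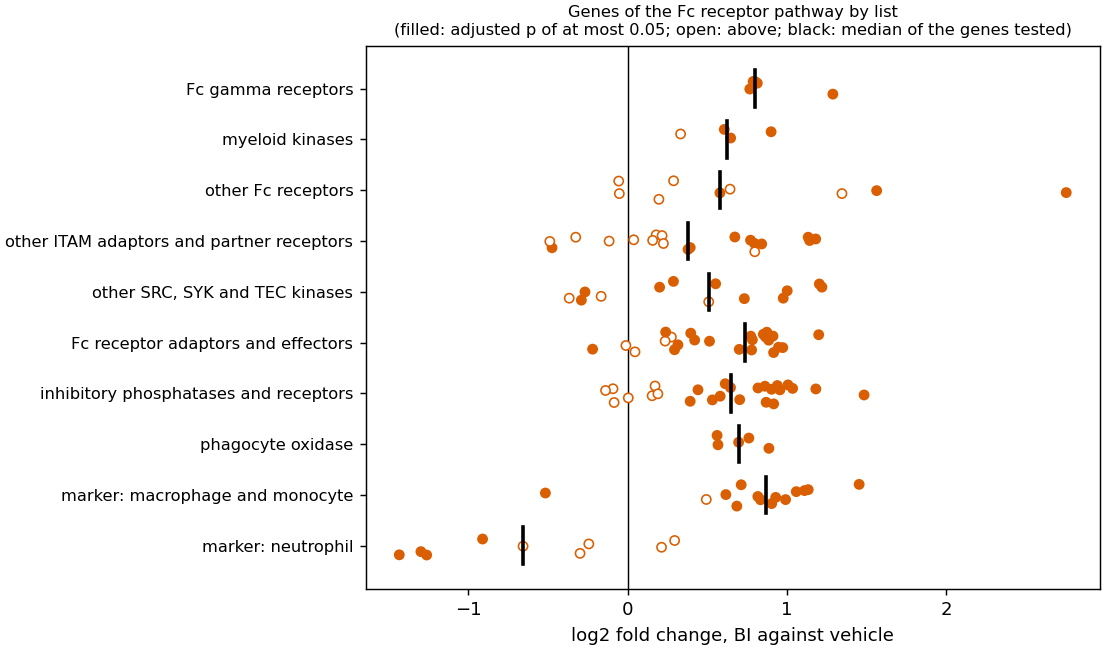
Log2 fold change, BI against vehicle (x axis), of the tested genes of each list. Filled points have an edgeR adjusted p of at most 0.05, open points do not, and black bars are medians. The receptor and kinase lists have medians of 0.80 and 0.63, the macrophage markers one of 0.87 and the neutrophil markers one of -0.66.

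Finally, the genes whose variation among tumors of the same group was most like that of each of the 9 were listed, by Pearson r of log2 CPM after subtraction of the group means, over 9 tumors and 10351 genes. This is a description of the highest of many values. The nearest to Fcgr4 were Tgfbr2 (0.953), a TGF-beta receptor gene, and the MHC class II loading genes H2-DMb1 (0.948) and H2-DMa (0.946). For Fcgr1 they were Gpank1 (0.949), Hps6 and the interferon-induced Oas1a (0.930). Jaml (0.968), Tmem181a and Gpt2 were nearest to Fcgr2b, and Snx5 (0.964), Zbtb44 and Ccnl1 to Fcgr3. For Fcer1g they were Nipsnap3b (0.975), Macir and Kdr. Among the kinases they were Tor2a (0.960), Rabl2 and Camta1 for Syk, Fmnl1 (0.976), Cav2 and Mcub for Fgr, Evi2 (0.957), Ptger4 and Rassf4 for Lyn, and Gm10052 (0.969), Msl3 and Rap1gds1 for Btk. No gene appeared for more than 1 of the 9. Among the receptors themselves the same measure was 0.92 for Fcgr2b with Fcgr3 and 0.58 for Fcgr1 with Fcgr4. It was -0.67 for Fcgr4 with Fcgr2b, -0.68 for Fcgr4 with Fcgr3, -0.39 for Fcgr1 with Fcgr2b and -0.22 for Fcgr1 with Fcgr3. In these 9 tumors the receptors thus did not all vary in the same direction within groups. These values were not tested, and Fcgr2b and Fcgr3, the pair with the highest, share part of their 50-base windows.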

How the data were processed

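Messenger RNA of 9 4T1 tumors (3 vehicle, 6 BI) was sequenced in pairs of 50-base mates with a stranded library kit. Per the study's methods and processing notes, the authors aligned reads to mm9 with STAR, kept unique hits, and counted with QuasR over RefSeq exons. The deposited values are raw counts per gene. They are not corrected for depth or length, and reads with more than 1 hit are lost, which lowers counts of near-identical genes.

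Counts were analysed with edgeR 4.0.16 in R 4.3.3: filterByExpr (minimum count 10, minimum total 15), TMM and the quasi-likelihood F test between BI and vehicle with no covariates. CPM are TMM-normalised, and a prior count of 2 went into log2 CPM. Gene lengths came from the deposited table, positions from GENCODE on mm9, and ratios had 0.5 added to counts. One count was 0.0295 to 0.0591 CPM. The p values set the difference between groups against the spread between tumors.

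Named genes were the 9 members, in each pathway list up to 3 genes with the smallest p in each direction among those passing 0.05 after adjustment, plus the most abundant per length, and for each member the 3 genes (mean log2 CPM of at least 3) most like it. Some single genes under this rule are not reported here. Marker genes and some genes beside a result are further examples. Members and lists were chosen with earlier results of these data known. Alternatives were RLE size factors, library size alone, 2 other filters, edgeR's likelihood ratio test, DESeq2 1.42.0, limma-voom (limma 3.58.1), a prior count of 5 and leaving out each tumor. Promoters of 8 of the 9 members were in the RefSeq table.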

Additional observations from a re-analysis of the deposited data

How the results depend on the processing

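Each of the 9 genes kept its direction and its side of the 0.05 threshold in 16 of 16 alternatives to the test, with 8 genes higher and 0 lower in each. With single tumors left out, the largest adjusted p of the 8 was 0.00538 (Fcgr2b), and Fgr ranged from 0.21 to 0.48 on the log2 scale. The edgeR adjusted p of Fgr then ran from 0.0649 without BI tumor 3 to 0.499 without vehicle tumor 3. In the other settings, the adjusted p of Fgr lay between 0.159 and 0.202. At the cutoffs of the study, 7 or 8 genes were called with single tumors left out, Lyn being the one lost. The number of all genes called higher ranged from 1332 (without vehicle tumor 3) to 2026 and the number called lower from 1172 (without vehicle tumor 3) to 1980, against 2040 and 1973. Without vehicle tumor 1, 1289 genes were lower. Fewer tumors enter these fits. The log2 ratio of Fcgr4 to Fcgr2b was 0.27 to 0.62 with single tumors left out, and 0.49 with a prior count of 5. No paired analysis was possible because the replicate numbers only name tumors. With 3 vehicle tumors, a difference from Fcgr2b of the size seen for Fcgr4 could not be told from the spread between tumors.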
